A study of Mus musculus with 9 samples.

Results

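Arg1, Avpr1b, Cd36, Sprr2a1, Sprr2a2 and Sprr2a3 are 6 of the 24736 genes counted in caudal epiblast-like cells (CEpiLCs) made from mouse embryonic stem cells (ESCs). They were selected by symbol because they were nearly absent from the cells that lack a functional T/Bra gene, so their low values in those cells describe the selection and were not tested. Differentiation lasted 72 h in medium with bFGF (basic fibroblast growth factor, 10 ng/ml) and LGK974 (5 uM), a Porcupine inhibitor that blocks the release of WNT proteins. The GSK3 inhibitor CHIR99021, which switches on WNT signalling inside the cell, was present for the last part of the culture up to day 3, and poly(A) RNA was sequenced. Wild-type cells (WT) were compared with a triple mutant of the transcription factor genes Cdx1, Cdx2 and Cdx4 (CdxKO; Cdx1/2/4-/-) and with a T/Bra-/- mutant (T/BraKO), with 3 cultures of each that the labels call biological replicates. All 3 groups received the same factors and inhibitors, and no group without CHIR99021 was used here. According to the study's methods the ESC lines all came from the XY line HM1 TetON and were kept on fibroblast feeder cells, which were separated off by plating before differentiation. The labels name no second line of a genotype, so a mutation and the line that carries it cannot be told apart, and the p-values measure the spread between cultures.

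T (Brachyury) is a T-box transcription factor of the primitive streak and of posterior progenitors, where WNT signalling induces it and where it switches on the genes of presomitic mesoderm. The 6 genes are best known from other tissues. Arg1 encodes the arginase of the urea cycle in liver, an enzyme that also marks one state of macrophage activation. Avpr1b encodes the V1b receptor for vasopressin of pituitary corticotrophs, which signals through Gq proteins and phospholipase C. Cd36 encodes a scavenger receptor that takes up long-chain fatty acids and oxidised lipoproteins in macrophages, fat, muscle and endothelium. The Sprr2a genes encode small proline-rich proteins, which transglutaminases cross-link into the cornified envelope of stratified epithelia, and they lie in the epidermal differentiation complex.

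Reads of the 3 Sprr2a genes are shared among them, almost wholly between Sprr2a1 and Sprr2a2 and in part with Sprr2a3, as their sequences show. On GRCm38, the assembly also called mm10, RefSeq places Sprr2a1 at chr3:92215835-92222491, Sprr2a2 at chr3:92250647-92257304 and Sprr2a3 at chr3:92285304-92289264, all on the forward strand. The copies are separated by 28.2 and 28.0 kb and together span 73.4 kb. Each coding sequence is 249 bases long without its stop codon, and those of Sprr2a1 and Sprr2a2 are identical. Capitals below mark the 3 bases at which Sprr2a3 differs (coding positions chr3:92219092-92219340 for Sprr2a1 and chr3:92288588-92288836 for Sprr2a3, GENCODE M21).
Sprr2a1 and Sprr2a2: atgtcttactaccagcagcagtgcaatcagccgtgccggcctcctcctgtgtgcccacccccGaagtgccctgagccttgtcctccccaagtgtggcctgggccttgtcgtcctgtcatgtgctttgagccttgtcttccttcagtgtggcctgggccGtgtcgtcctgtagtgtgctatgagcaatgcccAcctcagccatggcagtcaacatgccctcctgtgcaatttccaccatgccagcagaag
Sprr2a3: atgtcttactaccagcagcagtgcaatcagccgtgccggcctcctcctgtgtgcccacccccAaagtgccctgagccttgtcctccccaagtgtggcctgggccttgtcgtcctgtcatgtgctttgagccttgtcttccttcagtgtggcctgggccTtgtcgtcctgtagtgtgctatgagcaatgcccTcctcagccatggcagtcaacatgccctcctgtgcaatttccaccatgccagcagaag
Counted from the first base of the start codon, and with the base of Sprr2a1 first, the differences are G63A, G159T and A192T. All 3 fall on the third base of a codon that begins with CC, which encodes proline whatever its last base. The reads were 76 bases long, whereas the longest stretch of coding sequence shared by all copies is 95 bases. Over the longest annotated transcript, 94.2% of the 76-base windows of Sprr2a1 and 94.6% of those of Sprr2a2 also occur in a transcript of another gene, in each case mainly in the other gene of this pair. For Sprr2a3 the share is 47.0%, or 28.3% on a shorter transcript of 682 bases, and for Arg1, Avpr1b and Cd36 it is 0%.

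The copies also share their upstream sequence. The 300-base RefSeq windows around the starts of Sprr2a1 and Sprr2a2, 250 bases before to 50 after, do not differ at any base (0 differences), and the Sprr2a3 window is the same sequence displaced by 28 bases. The 250 bases upstream of Sprr2a3 (chr3:92285054-92285303, GRCm38.p6, forward strand) are shown as the example, with the 28 bases outside the Sprr2a1 window in capitals. The bases in lower case also lie in the windows of Sprr2a1 and Sprr2a2, 28 bases farther upstream of the annotated start.
Sprr2a3 upstream: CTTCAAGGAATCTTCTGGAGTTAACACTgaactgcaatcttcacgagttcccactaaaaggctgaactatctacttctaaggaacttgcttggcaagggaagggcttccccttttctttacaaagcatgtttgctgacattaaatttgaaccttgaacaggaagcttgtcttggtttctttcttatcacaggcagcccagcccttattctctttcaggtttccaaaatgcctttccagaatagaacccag
Promoter windows were found for the 3 Sprr2a genes and Cd36. The letters AGGTGTG (a T-box site), CTTTGAT (a TCF/LEF site) and TTTATGG (a CDX site) were looked for on both strands, and none is in these 4 windows. Of 32817 mouse promoter windows of the same length, 5.84%, 3.73% and 2.75% hold them.

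The libraries held 25124344 to 34705361 estimated counts. At this depth a count of 3, taken as the floor, corresponds to 0.0864 to 0.119 CPM (counts scaled to the library total), and floors and counting intervals cover counting error only. Values below are normalised counts, that is the estimated count divided by the size factor of the library. T itself averaged 12243 ± 2181 normalised counts in WT (mean ± SD, n = 3 as throughout) and 13340 ± 6780 in CdxKO cells. Its mean in T/BraKO was 2295 ± 563, so that the transcript was lower but still present in the mutant. The genes of the caudal epiblast list, which also holds Pou5f1, Utf1 and Fgf5, were present in every group. Their summed level was 1585 to 2020 TPM (RSEM's abundance scaled for transcript length) in WT, 1469 to 1947 in CdxKO and 2044 to 2597 in T/BraKO. Pou5f1 had the most normalised counts of the list, 14747 ± 3565 in WT and 21352 ± 3613 in T/BraKO. The sum therefore does not stand for each gene, and Fgf8 averaged 725 ± 116 in WT and 245 ± 57.7 in T/BraKO. The lines differed in genes outside the targeted loci. Hprt, an X-linked purine salvage gene, averaged 21.7 ± 5.81 in WT and 22.4 ± 2.37 in CdxKO cells, against 3938 ± 303 in T/BraKO. Ddx3y, a gene of the Y chromosome, had 1727 ± 55.7 in WT, 2397 ± 325 in T/BraKO and none in CdxKO. These values go against a common origin of the lines without later change. Their part in the results below was not tested. In every genotype, replicate 1 held the largest share of the ribosomal RNA gene Rn45s, at 1.69% to 4.21% of counts against 0.343% to 0.992% in the others.

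Arg1 (chr10:24915207-24927470, reverse strand) had the fewest counts of the members in T/BraKO. It had 114, 24.2 and 66.2 normalised counts in WT replicates 1, 2 and 3, and 62.7, 5.36 and 32.9 in CdxKO. In T/BraKO the estimated counts were 1, 1 and 0, all within the floor. The T/BraKO libraries lay below all others, and replicate 2 was the lowest library of WT and of CdxKO. Summed over the libraries, 197 counts in WT stood against 2 in T/BraKO, a ratio of 102 after scaling by the summed size factors (95% counting interval 28.0 to 851). For CdxKO the ratio to T/BraKO was 47.5 (12.8 to 398). In bulk samples such as these, fewer cells with the transcript and less transcript per cell cannot be told apart.

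Avpr1b (chr1:131599114-131612000, forward strand) had 99.0, 206 and 51.3 normalised counts in WT replicates 1, 2 and 3. It had 109, 82.1 and 61.1 in CdxKO, and its estimated counts in T/BraKO were 0, 5 and 0. All the residual signal in T/BraKO thus came from replicate 2, the replicate that was also highest in WT, although not in CdxKO. The WT and CdxKO libraries overlapped over the whole CdxKO range. The mean in T/BraKO was 1.29% of the WT mean and 1.81% of the CdxKO mean.

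Cd36 (chr5:17781690-17888959, reverse strand) kept a few counts in every T/BraKO library. Its normalised counts were 312, 140 and 199 in WT and 520, 104 and 340 in CdxKO, for replicates 1, 2 and 3. In T/BraKO they were 3.31, 5.50 and 5.38, from 3, 6 and 6 estimated counts. CdxKO held both the highest and the lowest library outside T/BraKO. The lowest WT library exceeded the highest T/BraKO library 25.5-fold, and the T/BraKO mean was 2.18% of the WT mean.

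The Sprr2a genes were the most abundant members and the best measured in T/BraKO. Sprr2a1 and Sprr2a2 were listed with the same value in every library, namely 2152, 1406 and 1057 normalised counts in WT replicates 1, 2 and 3. They had 4758, 1473 and 3016 in CdxKO and 36.2, 10.8 and 23.4 in T/BraKO. For Sprr2a3 the WT libraries spanned 663 to 1399, the CdxKO libraries 984 to 3451 and the T/BraKO libraries 9.54 to 20.2. Replicate 2 was the lowest library in CdxKO and in T/BraKO for each copy, but the middle one in WT, and the WT and CdxKO ranges overlapped. The T/BraKO mean was 1.53% of the WT mean for Sprr2a1 and Sprr2a2 and 1.49% for Sprr2a3.

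The sum of the 3 copies does not depend on how shared reads were divided among them. It was 5702, 3638 and 2776 normalised counts in WT, 12967, 3930 and 7887 in CdxKO, and 92.7, 31.1 and 60.1 in T/BraKO. Sprr2a3 took 21.8% to 30.6% of the counts of the 3 copies in a library, and the ranges of this share overlapped between the genotypes (22.7% to 24.5% in WT, 23.5% to 26.6% in CdxKO, 21.8% to 30.6% in T/BraKO). The residual Sprr2a signal in T/BraKO, with 84, 34 and 67 estimated counts, lay above the floor in all 3 libraries.

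**Figure D1:**
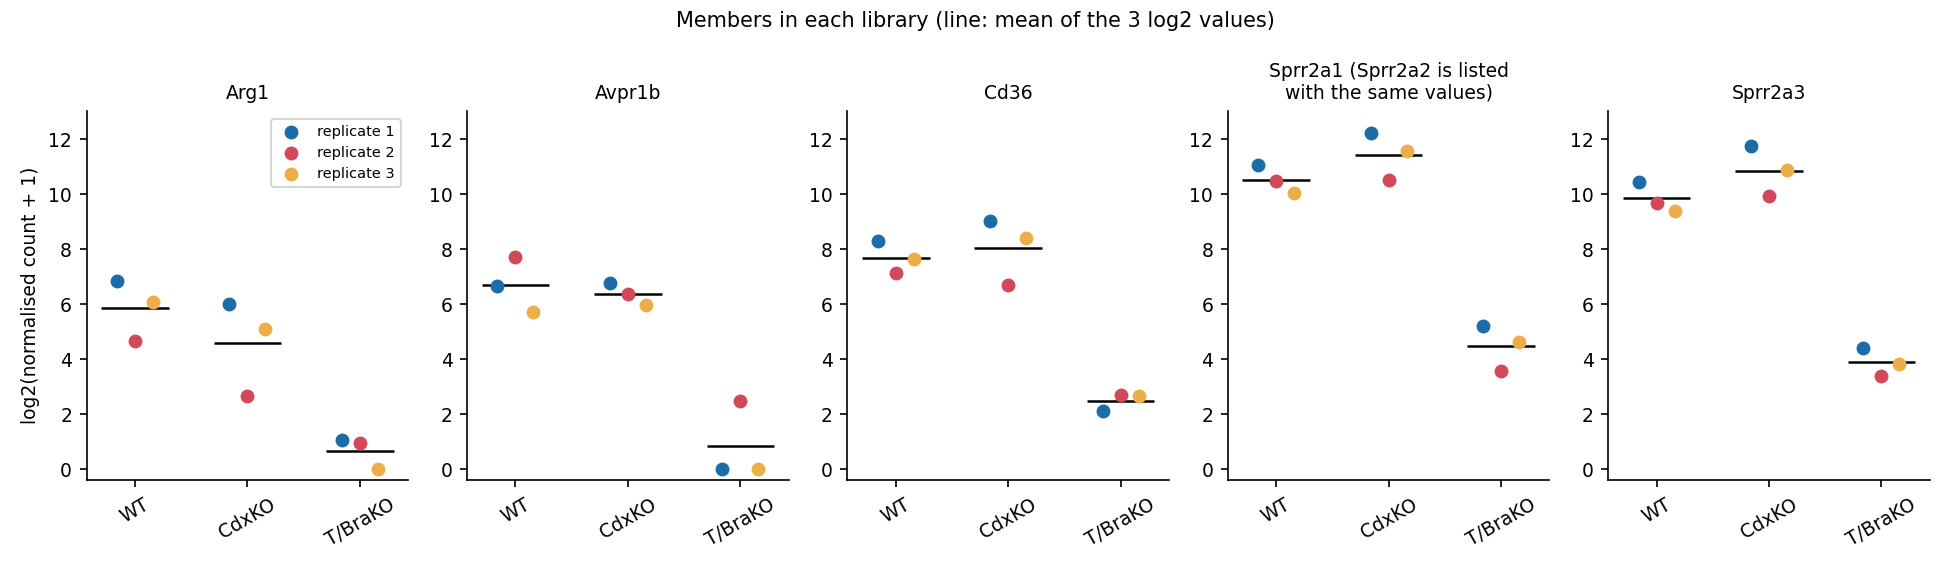
Normalised counts of the members, as log2(normalised count + 1), in each of the 9 libraries, by genotype and coloured by replicate number, with lines at the mean of the 3 log2 values. All T/BraKO points lie below all WT and CdxKO points of the same gene, and replicate 2 is the lowest CdxKO library for Arg1, Cd36, Sprr2a1 and Sprr2a3.

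Compared per transcript length, in TPM, the order of the members was the same in WT and CdxKO. Sprr2a3 was listed highest in WT (86.3 ± 35.2 TPM), followed by Sprr2a1 and Sprr2a2 (30.9 ± 11.5 TPM each). Cd36 (4.36 ± 1.77 TPM), Arg1 (3.37 ± 2.22 TPM) and Avpr1b (2.04 ± 1.39 TPM) followed, and the WT ranges of these 3 overlapped. The lead of Sprr2a3 over its copies depends on the transcript model, since 1 count of Sprr2a3 was converted to 4.44 to 4.53 times as many TPM as 1 count of Sprr2a1. In T/BraKO no member exceeded 1.76 TPM in any library.

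Among the 13459 genes with a mean of at least 20 normalised counts in WT, the members ranked 3 to 9 by the share of the WT mean left in T/BraKO, which describes how they were selected. H2-Q8 and Qrfpr, both at 0 in T/BraKO, ranked above them. H2-Q8 was also at 0 in CdxKO, whereas Qrfpr, which encodes a neuropeptide receptor, had a mean of 49.9 normalised counts there and 22.5 in WT. Msgn1, a master regulator of presomitic mesoderm, ranked among the members at 2.09%, and Ddx60 followed directly after Cd36, at 2.51% against 2.18%.

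Whether the members also differed in the line without the CDX factors was tested by comparing CdxKO with WT. The near absence in T/BraKO does not bear directly on this contrast, although the selection also looked at CdxKO columns. Loss of the CDX factors cannot be told apart here from other differences of the line, such as its lack of Ddx3y counts. None of the 6 members passed in the DESeq2 fit across all genes (0 of 6 at an adjusted p of at most 0.05, against 0.693% of the 16737 genes tested, of which 0.335% were higher and 0.358% lower), 1 had an unadjusted p under 0.05, and edgeR called 0. The log2 fold changes of CdxKO over WT were -1.02 for Arg1 (SE 0.82, 95% interval -2.63 to 0.58) and -0.50 for Avpr1b (SE 0.57, -1.61 to 0.61). They were 0.57 for Cd36 (SE 0.51, -0.42 to 1.56), 1.00 for Sprr2a1 and Sprr2a2 (SE 0.55, -0.07 to 2.07) and 1.12 for Sprr2a3 (SE 0.54, 0.06 to 2.19). DESeq2 adjusted p were between 0.895 and 0.9998. These intervals hold changes of more than 2-fold for every member, so the data do not show that the members were alike in WT and CdxKO.

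Same-numbered libraries of the genotypes deviated together, and the replicate number was therefore also taken as a block. With the block, the DESeq2 fit called Sprr2a3 higher in CdxKO (1.01 on the log2 scale, SE 0.31, adjusted p 0.0243). It was the only member called (1 of 6, against 5.31% of genes in either direction, 3.40% higher and 1.91% lower), and Sprr2a1 and Sprr2a2, with which it shares reads, did not pass in this fit (0.88, SE 0.36, adjusted p 0.153). In edgeR with the block, added after the data were seen, all 3 copies were called higher (adjusted p 0.0352 for Sprr2a1 and Sprr2a2 and 0.0131 for Sprr2a3). The sum of the copies had a log2 fold change of 0.91 (SE 0.33) and an adjusted p of 0.0927 with the block. Arg1 came next, with -1.20 (SE 0.43, adjusted p 0.0835).

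The ratios within a replicate number show how far the cultures differed. The Sprr2a sum in CdxKO was 2.27, 1.08 and 2.84 times that in WT for replicates 1, 2 and 3. Cd36 was 1.67, 0.739 and 1.71 times WT, hence lower in replicate 2 and higher in both others. Avpr1b, at 1.10, 0.399 and 1.19 times WT, had the same pattern, and Arg1 was below WT in each replicate, at 0.552, 0.222 and 0.497 times. For every member the ratio was lowest in replicate 2.

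**Figure D2:**
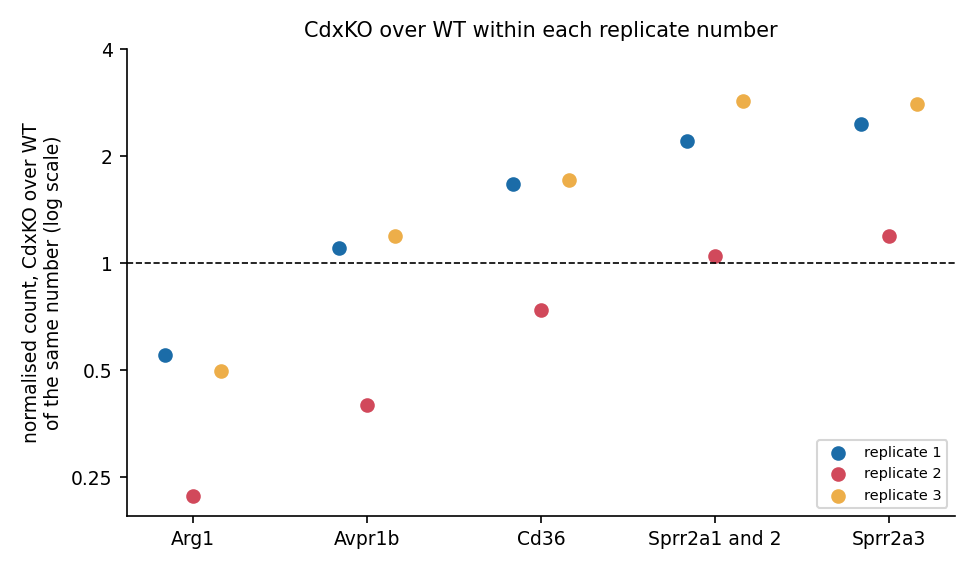
Normalised count in CdxKO divided by that in WT of the same replicate number, on a log2-spaced axis, for each member, with the dashed line at equal values. Arg1 lies below 1 in all 3 replicates, Sprr2a1 to Sprr2a3 lie above 1 in all 3, and Avpr1b and Cd36 lie below 1 in replicate 2 only.

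Differences between replicate numbers were tested with genotype in the model. The near absence in T/BraKO does not bear directly on this comparison, although the selection also named replicate numbers. Between replicates 1 and 2, Arg1 was higher in replicate 1 (log2 fold change 2.62, SE 0.54, DESeq2 adjusted p 1.65e-05), as were Sprr2a1 and Sprr2a2 (1.24, SE 0.38, adjusted p 0.00598) and Sprr2a3 (1.22, SE 0.34, adjusted p 0.00228). Cd36 (1.25, SE 0.55) and Avpr1b (-0.96, SE 0.75) did not pass, with adjusted p of 0.0693 and 0.355. These 4 of 6 rows, which stand for 2 loci, are set against 30.4% of all genes called between the same replicates (16.6% higher and 13.8% lower). Replicate 1 also held the most Rn45s in each genotype, and the part of this in the result was not tested.

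Replicate 3 exceeded replicate 2 for Arg1 (1.71, SE 0.54, DESeq2 adjusted p 0.00572) and was below it for Avpr1b (-1.80, SE 0.77, adjusted p 0.0450), against 41.9% of genes called (21.8% higher and 20.1% lower). Between replicates 1 and 3, Sprr2a3 was the only member called (0.89, SE 0.34, adjusted p 0.0481, called in 6 of 15 fits), and the sum of the copies did not pass (adjusted p 0.0987), against 17.2% of genes (9.17% higher and 8.03% lower). Arg1 and Avpr1b thus moved in opposite directions between replicates 3 and 2. Over the 6 WT and CdxKO libraries, as a description, log2(normalised count + 1) of Cd36 had a Pearson r of 0.835 with the Sprr2a sum and 0.737 with Arg1, whereas that of Avpr1b with the other members lay between -0.15 and 0.07.

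Genes outside the members were ranked by the Pearson r of their log2 values with each member, as a description of likeness. Over all 9 libraries a high r largely reflects a low level in the 3 T/BraKO libraries, which share their genotype. By this measure the genes most like Arg1 were Pik3c2b (r 0.968), Dixdc1, Ets2, Tbx6 and Aplnr, and those most like Cd36 were Msgn1 (0.990), Qrfpr, Scn9a, Il15ra and Ptgs1. Those most like Avpr1b were Cpxm2 (0.985), Tap2, Parp14, Il17rc and Trim67, and those most like the Sprr2a sum were Ptgs1 (0.992), Psme2, Igfbp3, Tmem255a and Dner. Msgn1 and Tbx6 are transcription factors of presomitic mesoderm, and Ptgs1 encodes a cyclooxygenase. Among the WT and CdxKO libraries alone the lists were Rimbp3 (0.995), Ephb2, Mrc2, Nktr and Prpf6 for Arg1, Gm15501 (0.992), Crybg1, Gt(ROSA)26Sor, Rgs4 and Psmb10 for Cd36, and Zfp773 (0.995), Ptgs1, Htra1, Cgnl1 and Lmx1a for the Sprr2a sum. For Arg1, Cd36 and the Sprr2a sum, Ptgs1 was the only gene in both lists of a member.

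Genes of the same pathways were then compared between T/BraKO and WT, where DESeq2 called 1.08% of the 18900 genes tested (28 higher, 0.148%, and 177 lower, 0.937%). Of 18 genes of arginine transport, the urea cycle, nitric oxide and polyamine synthesis, 0 were called by DESeq2 and 0 of 16 by edgeR, and 4 had an unadjusted p under 0.05. Arg2, the mitochondrial arginase, had 51.3 ± 21.6 normalised counts in WT and 48.2 ± 15.5 in T/BraKO. Their median log2 fold change was 0.10, against 0.00 over all genes tested. With the replicate block 5 of 16 were higher, namely Oat, Odc1, Azin1, Srm and Slc7a3, which act in ornithine and polyamine metabolism or arginine uptake, and Sms was lower, against 9.68% of all genes (4.83% higher and 4.85% lower). Oat averaged 10383 ± 443 normalised counts in WT and 11916 ± 591 in T/BraKO.

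Of 9 counted genes of the vasopressin system, 0 were called by DESeq2 without the block, 0 of 8 by edgeR, and 2 had an unadjusted p under 0.05. With the block 0 of the 6 genes tested were called, Avpr1a not being among them. The hormone genes Avp and Oxt had no count in any library. Avpr1a, the V1a receptor and closest relative of Avpr1b, was measured at 41.6, 15.5 and 64.3 normalised counts in WT and at 31.4, 8.93 and 43.3 in CdxKO. In T/BraKO it had 2.21, 1.83 and 15.2. Within each replicate number the T/BraKO library was the lowest of the 3 genotypes. Across numbers, the T/BraKO libraries lay below all WT libraries, the nearest pair being 15.2 and 15.5, and overlapped those of CdxKO. The log2 fold change to WT did not pass (-2.64, SE 0.88, DESeq2 adjusted p 0.171). That of CdxKO over T/BraKO was 2.10 without the block (SE 0.88, DESeq2 adjusted p 0.260) and 2.23 with it (adjusted p 0.00245). The Gq and phospholipase genes that relay the receptor signal, such as Gnaq and Plcb3, had 1873 ± 159 and 1860 ± 279 normalised counts in WT and 1937 ± 53.7 and 1765 ± 372 in T/BraKO.

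Of 23 counted genes of fatty acid uptake and binding, 0 were called by DESeq2 without the block and 0 of 20 by edgeR, and 1 had an unadjusted p under 0.05. Scarb1 and Scarb2, which belong to the same receptor family as Cd36, had 2588 ± 290 and 2462 ± 324 normalised counts in WT and 2410 ± 210 and 2256 ± 398 in T/BraKO. With the block the fatty acid genes Fabp5 and Acsl3 were higher and Fabp7 lower, 3 of 19 tested, against 9.68% of all genes. Fabp7, a fatty acid binding protein of neural progenitors, had 138 ± 59.3 normalised counts in WT and 60.7 ± 26.5 in T/BraKO (with the block log2 fold change -1.19, DESeq2 adjusted p 1.06e-05).

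The cornified envelope list held 34 genes of the table, 17 of which had no count in any library. The other Sprr2 genes, from Sprr2b to Sprr2k, had at most 0.611 normalised counts on average in any group, and the envelope gene Ivl had at most 2.99. Cstb, Ppl and Tgm1 of the same list were present, with WT means of 1130 ± 52.3, 239 ± 83.0 and 162 ± 129. Of the 17 counted genes, S100a10 was called lower in T/BraKO (log2 fold change -0.93, SE 0.24, DESeq2 adjusted p 0.0109). It encodes a partner of annexin A2 and had 1810, 1599 and 1618 normalised counts in WT and 797, 1219 and 613 in T/BraKO, so the groups did not overlap. edgeR called 0 of 11, and 2 of the list had an unadjusted p under 0.05. With the block Tchh and S100a11 joined it as lower and S100a6 was higher. Sprr1a, the nearest related gene with counts, averaged 38.0 ± 19.7 in WT and 60.0 ± 13.9 in CdxKO cells, and 22.3 ± 12.7 in T/BraKO.

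Markers of tissues in which the members are best known were examined next. For surface ectoderm, Krt5, Krt14 and Trp63 had means of 2.06 to 24.1 normalised counts in all groups. The highest of these means, that of Krt5 in CdxKO, came mostly from replicate 1 (53.9, against 9.82 and 8.47 in the others). Tfap2a averaged 23.5 ± 11.7 in WT and 32.9 ± 13.3 in CdxKO cells. Its T/BraKO mean was higher, at 55.2 ± 54.0, with 117 in replicate 2. Other genes of the list had higher levels, with WT means of 1739 ± 190 for Perp, 462 ± 128 for Grhl2 and 185 ± 26.5 for Grhl3. In T/BraKO 0 of 11 genes were called by DESeq2 and 0 of 8 by edgeR (1 with an unadjusted p under 0.05). In simple epithelium, 0 of 10 genes were called by DESeq2, 0 of 10 by edgeR and 1 at an unadjusted p under 0.05. With the block, Grhl2 and Epcam were higher and Grhl3 and Krt19 lower. For macrophages, Ptprc had at most 0.925 normalised counts on average in a group and Csf1r at most 1.88, Tyrobp was at 0 throughout, and Cd68, a lysosomal gene, had 251 ± 128, 280 ± 134 and 241 ± 116 in WT, CdxKO and T/BraKO. DESeq2 called 0 of 10 counted macrophage genes and edgeR 0 of the 4 it tested, with 0 at an unadjusted p under 0.05. Their summed level was 10.2 to 27.0 TPM in WT, 11.9 to 28.3 in CdxKO and 10.0 to 24.2 in T/BraKO. For liver and gut, the endoderm list had 0 of 11 genes called by DESeq2, 0 of 8 by edgeR and 0 at an unadjusted p under 0.05. Afp, Ttr and Apoa1 had 5.39 normalised counts or fewer on average, but other genes of the list were present. In WT, Foxa2 averaged 232 ± 110, Gata6 42.5 ± 11.1, Gata4 30.1 ± 11.4, Sox17 17.3 ± 7.07 and Dab2 418 ± 112. In the trophoblast list 0 of 9 genes and in the endothelium list 0 of 7 were called by DESeq2 without the block, and 0 of 8 and 0 of 5 by edgeR, with 1 gene in each at an unadjusted p under 0.05. With the block DESeq2 called Eomes (log2 fold change 1.26, adjusted p 2.81e-11) and Tfap2c of the trophoblast list higher in T/BraKO, 2 of 4 tested. Kdr of the endothelium list (-0.99, adjusted p 2.89e-07, 1 of 4 tested) and Foxa2 of the endoderm list (-1.40, adjusted p 0.0187, 1 of 5) were lower. Over all genes 9.68% were called with the block.

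Genes of the fibroblast list, chosen to look for feeder cells, were present in all groups, but some were low. Lum had group means of 4.59 to 6.07 normalised counts and S100a4 of 3.14 to 11.7. The summed level of the list was 59.2 to 97.1 TPM in WT, 74.9 to 123 in CdxKO and 56.7 to 84.5 in T/BraKO. Whether these counts came from feeder cells was not tested. Of 13 genes, Postn (log2 fold change -2.58, SE 0.74) and Pdgfrb (-0.91, SE 0.26) were called lower in T/BraKO, with DESeq2 adjusted p of 0.0491 and 0.0464, edgeR called 0 of 12, and 6 had an unadjusted p under 0.05. Postn had 27.0, 50.3 and 14.9 normalised counts in WT and 4.48 to 5.52 in T/BraKO. With the block, Col1a1, Col1a2 and Pdgfra were lower as well (5 of 11, against 4.85% of all genes). Col1a1 averaged 1120 ± 458 normalised counts in WT and 562 ± 191 in T/BraKO. Thy1 (477 ± 54.0 and 658 ± 132) and Dcn (29.8 ± 14.0 and 48.7 ± 24.8) did not pass and had higher means in T/BraKO. The part of this cell type in the levels of the members was not tested.

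Genes of presomitic and paraxial mesoderm and of caudal epiblast held 9 of the 12 calls that DESeq2 made in these lists without the block. Of 15 mesoderm genes, 4 were lower (Msgn1, Tbx6, Rspo3 and Dll1) and Pcdh8 was higher in T/BraKO, with a median log2 fold change of -0.66. Msgn1 had 219, 128 and 114 normalised counts in WT and 3.31, 1.83 and 4.48 in T/BraKO, a difference of -5.58 on the log2 scale (SE 0.72, DESeq2 adjusted p 8.59e-12). Tbx6 fell by 3.41 and Rspo3, an activator of WNT receptors, by 1.95 on the log2 scale (adjusted p 2.05e-07 and 0.00108). With the block, where all the lists together held 19 higher and 23 lower calls, 6 of 10 mesoderm genes tested were lower and 1 higher. Without the block edgeR called 1 mesoderm gene. Of 15 caudal epiblast genes, Fgf8 (-1.56, adjusted p 5.01e-07) and Wnt3a (-1.18, adjusted p 0.00726) were lower and Fgf17 (0.78, adjusted p 0.00627) and Sp5 higher. With the block 6 of the 15 were higher, Pou5f1 among them, and 3 lower, against 4.83% of all genes higher and 4.85% lower.

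**Figure D3:**
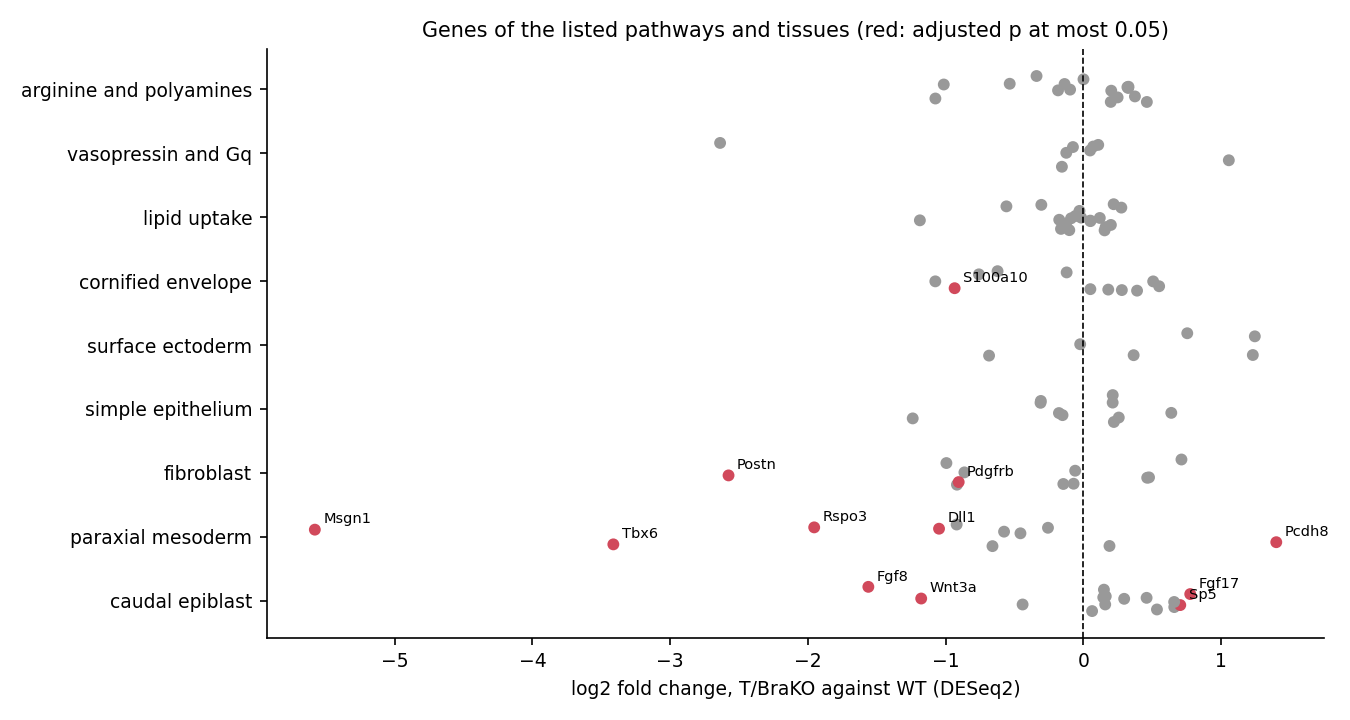
DESeq2 log2 fold change of T/BraKO against WT for genes of the listed pathways and tissues with a mean of at least 20 normalised counts in some group, 1 point per gene, with genes at an adjusted p of at most 0.05 in red and named. In this fit, without the replicate block, called genes are mostly in the mesoderm and caudal epiblast lists. The arginine, vasopressin and lipid uptake lists have none here. With the block, which is not shown, the arginine list had 5 higher and 1 lower and the lipid uptake list 2 higher and 1 lower.

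In CdxKO the same lists held 2 higher and 2 lower calls without the block, and 15 and 6 with it. Without it, DESeq2 called 0 genes in the arginine, vasopressin, lipid uptake and cornified envelope lists (1, 0, 2 and 3 genes with an unadjusted p under 0.05) and edgeR called 0. Perp, a desmosome gene of the surface ectoderm list, rose (log2 fold change 0.50, SE 0.14, adjusted p 0.0482), and Hand1 of the trophoblast list rose by 2.44 (SE 0.28, adjusted p 2.58e-14). Wnt3a and Wnt8a fell by 1.42 and 0.77 on the log2 scale (adjusted p 4.60e-04 and 0.00511). With the block 2 of 16 arginine genes tested (Slc7a1 and Slc7a3, both arginine carriers) and 3 of 19 lipid genes (Acsl3, Thbs1 and Cav1) were higher in CdxKO. So were 2 of 11 cornified envelope genes (S100a6 and Ppl), against 3.40% of all genes. In the fibroblast list Col1a1 (log2 fold change 0.94 and DESeq2 adjusted p 6.60e-13 with the block), Col1a2 and Col5a1 were higher and Thy1 lower, in the fit in which Sprr2a3 was called higher, and the part of this cell type in that result was not tested. Cldn6, Cldn7, Perp, Hand1 and Pou5f1 were higher and Hes7, Nkx1-2, Fgf8, Wnt3a and Wnt8a lower with the block. Thbs1, a ligand of Cd36, averaged 1781 ± 919 in WT and 3462 ± 1295 normalised counts in CdxKO cells.

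Neighbouring genes were compared to see whether low levels extended along the chromosome. The 3 nearest genes with a mean of at least 10 normalised counts were taken on each side of the 4 loci, and of these 24 genes DESeq2 called 0 in T/BraKO, edgeR called 0, and 1 had an unadjusted p under 0.05. Their log2 fold changes ranged from -1.07 to 1.00 with a median of -0.04, and 4 of 21 tested were called with the block, 3 of them lower, against 9.68% of all genes. Med23, a Mediator subunit gene whose nearer end lies 1.54 kb from Arg1, had means of 2419 normalised counts in WT and 2413 in T/BraKO. Fam72a (266 and 221) was nearest to Avpr1b at 59.4 kb, Sema3c (514 and 687) to Cd36 at 51.4 kb and Lor (31.3 and 41.1) to the Sprr2a cluster at 133 kb. The farthest neighbour, Pclo, lay 2918 kb from Cd36. Genes below the count limit were not compared, so levels closer to these loci were not examined. In CdxKO 0 of the 24 were called by DESeq2 without the block and 0 by edgeR, 3 had an unadjusted p under 0.05, and 5 of 21 tested were called with the block, against 5.31% of all genes.

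**Figure D4:**
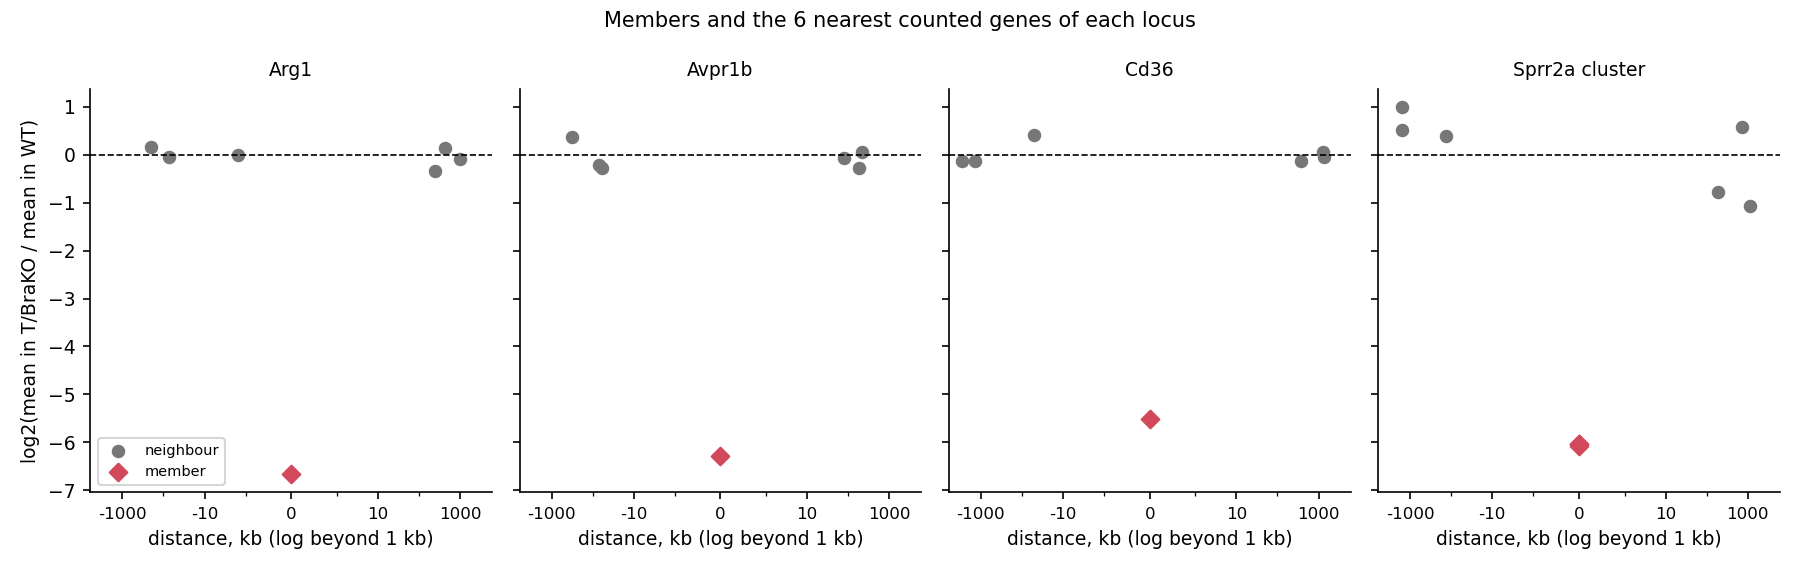
Log2 ratio of the mean normalised count in T/BraKO to that in WT for the members (diamonds) and the 6 nearest counted genes of each locus (circles), against distance in kb on an axis that is logarithmic beyond 1 kb. Every member lies below every neighbour, and the DESeq2 log2 fold changes of the neighbours span -1.07 to 1.00.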

How the data were processed

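RNA from 9 cultures was sequenced as 76-base single-end, strand-specific reads. According to the study's methods and the submitters' processing notes, the authors trimmed adapters with cutadapt 1.16 and quantified reads with STAR 2.5.2a and RSEM 1.3.0 against RefSeq genes of mm10. The authors deposited expected counts, which are RSEM estimates that divide shared reads between genes, and TPM, scaled within a library for transcript length. Column names matched library titles.

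Expected counts were rounded and analysed in R 4.3.3 with DESeq2 1.42.0, the tool that the study's methods name. The fit was chosen here (all 9 libraries, genotype as the only term, default size factors, Wald test, Benjamini-Hochberg adjustment over the genes that DESeq2's independent filtering kept). Normalised values use unrounded counts. TPM were not tested. edgeR 4.0.16 (quasi-likelihood test, filterByExpr) and a block for the replicate number were alternatives. Over 12316 genes with a mean of at least 50 normalised counts, deviations from the group means correlated at 0.532 to 0.814 in the 9 pairs of same-numbered libraries and at -0.691 to 0.134 in the other 18, so the numbers were taken as pairs. No libraries were duplicates. Counting intervals for ratios of summed counts are exact conditional binomial intervals at 95%. Scripts were tested on simulated counts.

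Members and gene lists were chosen with earlier results of these data known, and list counts support nothing by themselves. Named genes are the members, T, line-check genes, marker genes, neighbours, the 5 genes most like each member, and up to 3 called genes of each list with the largest changes (at least 20 normalised counts). The genes most like Avpr1b among the WT and CdxKO libraries are not reported here. Other called or background genes were named after their values were seen. Neighbours and distances are from GENCODE M21 and sequences from GENCODE and RefSeq, both on GRCm38, and 24204 of 24736 symbols matched a GENCODE name.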

Additional observations from a re-analysis of the deposited data

How the results depend on the processing

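Test results for single members were recomputed under up to 18 alternatives (366 values). Of these, 315 kept their direction and side of the threshold, 25 lost and 22 gained a call, and 4 reversed, none of them called. On the log2 scale, Avpr1b in CdxKO against WT turned to 0.18 without replicate 2 in every group and ranged from -0.86 to 0.16 with single libraries left out (0.16 without WT replicate 2). Cd36 between replicates 1 and 3 ranged from -0.015 (without CdxKO replicate 1) to 0.69, and Sprr2a3 between replicates 3 and 2 from -0.20 (without CdxKO replicate 2) to 0.84. Without CdxKO replicate 2, 1 member (Sprr2a3) was called in CdxKO. Arg1 between replicates 1 and 2 was called in all 16 fits. Sprr2a3 was called there in 14 of 15 but between replicates 1 and 3 in 6 of 15, and Avpr1b between replicates 3 and 2 in 10 of 16. The percentages of the WT mean left in T/BraKO moved by less than the spread between replicates with TPM or TMM factors. Low counts limit Arg1 and Avpr1b, and shared reads limit the Sprr2a copies. The cause of the changes below was not tested.

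The replicate block, which treats same-numbered libraries as a pairing, gave 1 member, 471 genes higher and 265 lower in CdxKO against WT, against 0, 56 and 60 without it. The block moved the listed genes called in CdxKO from 2 higher and 2 lower to 15 and 6, and in T/BraKO from 3 and 9 to 19 and 23. edgeR with the block (added after the data were seen) gave 3 members (the Sprr2a copies), 424 genes higher and 257 lower in CdxKO, and listed genes of 16 and 4 in CdxKO and 16 and 25 in T/BraKO. edgeR without it called 5 genes higher and 11 lower in CdxKO, listed genes of 1 and 0 in CdxKO and 1 and 2 in T/BraKO, and 2 members higher between replicates 3 and 2 and 3 between replicates 1 and 3. Without replicate 2 in every group (also added after the data were seen) 93 genes and 4 listed genes were higher in CdxKO. Without independent filtering, 1 listed gene was higher in CdxKO, and 0 members were lower between replicates 3 and 2 or higher between 1 and 3. With the WT and CdxKO libraries only, replicates 1 and 2 differed in 1335 genes higher and 1072 lower. In the same libraries 1974 genes were lower between 3 and 2, with 2 members higher. Between 1 and 3, 458 genes were higher and 415 lower there, with 0 members higher. With the Sprr2a rows summed, 2 of 4 members were higher between replicates 1 and 2 and 0 between 1 and 3.

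With each library left out in turn, genes called in CdxKO ranged from 20 to 76 higher and 33 to 64 lower, and members from 0 to 1 higher and 0 to 0 lower. Between replicates 1 and 2, 1506 to 2172 genes were higher and 1243 to 1806 lower, with 1 to 5 members higher and 0 to 1 lower. Between 3 and 2, 2453 to 3254 were higher and 2234 to 2931 lower, with 0 to 4 and 0 to 1 members. Between 1 and 3, 593 to 1355 were higher and 561 to 1238 lower, with 0 to 3 members higher and 0 to 0 lower. Listed genes ranged from 1 to 3 higher and 1 to 3 lower in CdxKO and from 1 to 4 and 5 to 9 in T/BraKO. The fewest members (1) were called between replicates 1 and 2 without CdxKO replicate 1, and none was higher between 3 and 2 without WT replicate 3.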

Other observations

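Several genes that ranked next to the members in T/BraKO, or were most like them across libraries, are known to be induced by interferons. A list of 45 such genes was written after these values had been seen, so its counts describe the selection and carry no test of the list. DESeq2 called 22 of the 45 lower in T/BraKO than in WT and 0 higher, against 0.937% of all genes called lower, and edgeR called 7 of 41. With the replicate block 23 of 34 were lower, against 4.85% of all genes. The median log2 fold change of the 45 was -1.06.

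Irf1, a transcription factor of the interferon response, averaged 1883 ± 490 normalised counts in WT and 2058 ± 368 in CdxKO cells. Its T/BraKO mean was 564 ± 96.2 (log2 fold change over WT -1.74, SE 0.22, DESeq2 adjusted p 2.82e-12). The immunoproteasome subunit Psmb8 had 144 ± 21.2 in WT and 15.9 ± 8.99 in T/BraKO (-3.16, SE 0.43, adjusted p 2.02e-10). The guanylate-binding protein gene Gbp2 had 873 ± 289 and 187 ± 86.3 (-2.23, SE 0.36, adjusted p 2.15e-07), and Il15ra, a cytokine receptor gene, 174 ± 15.6 and 27.5 ± 7.34 (-2.66, SE 0.32, adjusted p 1.85e-13). For each of these genes the WT and T/BraKO libraries did not overlap. The other 23 did not pass, among them Stat2, Irf9 and Bst2 with log2 fold changes of -0.24, -0.09 and -0.04, and Cxcl10 and Rsad2 with 0.04 and 0.45.

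In CdxKO, DESeq2 called 0 of 44 tested genes of the list, against 0.693% of all genes. Of the list, 2 had an unadjusted p under 0.05, and edgeR called 0 of 41. The median log2 fold change of the 44 was 0.06. With the replicate block DESeq2 called 1 of 39 (Irgm1, higher, adjusted p 0.00261), against 5.31% of all genes. The interferon genes Ifng and Ifnb1 had no count in any library. The receptor and kinase genes Ifngr1, Ifngr2, Ifnar1, Ifnar2, Jak1, Jak2 and Tyk2 had log2 fold changes of -0.20 to 0.12 in T/BraKO, and 0 of 7 passed with DESeq2, 0 at an unadjusted p under 0.05 and 0 with edgeR. As for Hprt, line and mutation cannot be told apart for the genes that were called.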
